A study of Rattus norvegicus with 4 samples.

Results

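Integrins, laminins and the other core genes of the basement membrane were followed in hippocampal area CA3 of Sprague-Dawley rats, 24 h after an intrahippocampal injection. Members were all probe sets with 1 annotated symbol for a numbered integrin alpha chain, Itgav, Itgal or Itgax, an integrin beta chain from Itgb1 to Itgb8, a laminin chain, a type IV collagen chain, a nidogen, perlecan (Hspg2) or agrin (Agrn). This gave 56 probe sets of 37 genes, out of 14217 genes on the array, and a gene was read from the probe set with the highest mean over the 4 arrays. The 4 arrays came from rats given the vehicle PBS, kainic acid (KA, a glutamate analogue that kills CA3 neurons by overexcitation), KA together with NAP (a short neuroprotective peptide derived from activity-dependent neuroprotective protein), or NAP alone. No other treatment or genotype is named, and the age and number of rats behind an array, or whether RNA was pooled, is not given in the sources used here.

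Integrins are receptors made of 1 alpha and 1 beta chain that tie the cytoskeleton to the matrix outside the cell. Laminins are trimers of 1 alpha, 1 beta and 1 gamma chain, and together with type IV collagen, nidogen and the heparan sulphate proteoglycans perlecan and agrin they form the basement membrane. In the brain these sheets surround blood vessels and lie under the pia. Endothelial cells, pericytes and astrocyte endfeet meet at the vascular basement membrane, and leukocytes that enter the tissue carry integrins of the beta-2 family.

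Each group had 1 array, so no value has a replicate error and no test between groups was possible. Values are MAS5 intensities, which are linear and whole. Differences are of log2(intensity + 10), a scale that understates the change of dim genes, and 2-fold (a difference of 1) is a fixed rule of size. Members with a mean intensity above 62.75 (the median of such means, controls left out) are described first. These were 21 of the 37 members, and the 16 dim members are described apart. The median intensity of an array lay between 58 and 65. Of the excitatory neuron and CA3 markers, which check the labelled tissue, 10 of 10 were past the filter. They summed to 10145 with PBS, 6448 with KA, 6002 with KA+NAP and 9056 with NAP. In bulk tissue, fewer cells of a type and less RNA per cell cannot be told apart. Intensities of different probe sets are not compared with each other, since probes differ in their response.

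With KA, the integrin beta-1 and beta-2 chains, laminin alpha-4 and gamma-1, collagen IV alpha-1 and integrin alpha-v lay higher, while the other laminins past the filter and Itga1, Itga3 and Itga7 lay below their PBS level on the KA array. In KA minus PBS, 3 of the 21 members past the filter (14.3%) were higher by 2-fold or more, namely Itgb1, Itgb2 and Lama4, against 4.91% of all 9489 genes past the filter. None was at least 2-fold lower, against 2.39% of all genes. In KA+NAP minus NAP, 5 of 21 (23.8%) were at least 2-fold higher, namely Itgb1, Itgav, Lama4, Lamc1 and Col4a1, against 5.66% of all genes. None was at least 2-fold lower there, against 2.41%. Itgb1 and Lama4 reached 2-fold in both differences, 2 of 21 members, and 3.13% of all genes did so. One of them, Lama4, was below 62.75 on both arrays without KA and passed through its KA arrays, so its count is not independent of the filter. Its difference in KA minus PBS was 0.66 with a pseudocount of 50, 0.98 after quantile normalization, 0.62 with the mean of its probe sets and 0.83 against the NAP array (a control added after the data were seen), each under 2-fold. With the mean of its probe sets its difference in KA+NAP minus NAP was 0.57. Against the NAP array, 1 member of 21 (Itgav) was at least 2-fold higher on the KA array. The share of all genes in that comparison was not counted. The median member was not higher with KA alone. The median difference was -0.17 in KA minus PBS and 0.26 in KA+NAP minus NAP, against 0.02 and 0.03 over all genes past the filter.

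**Figure D1:**
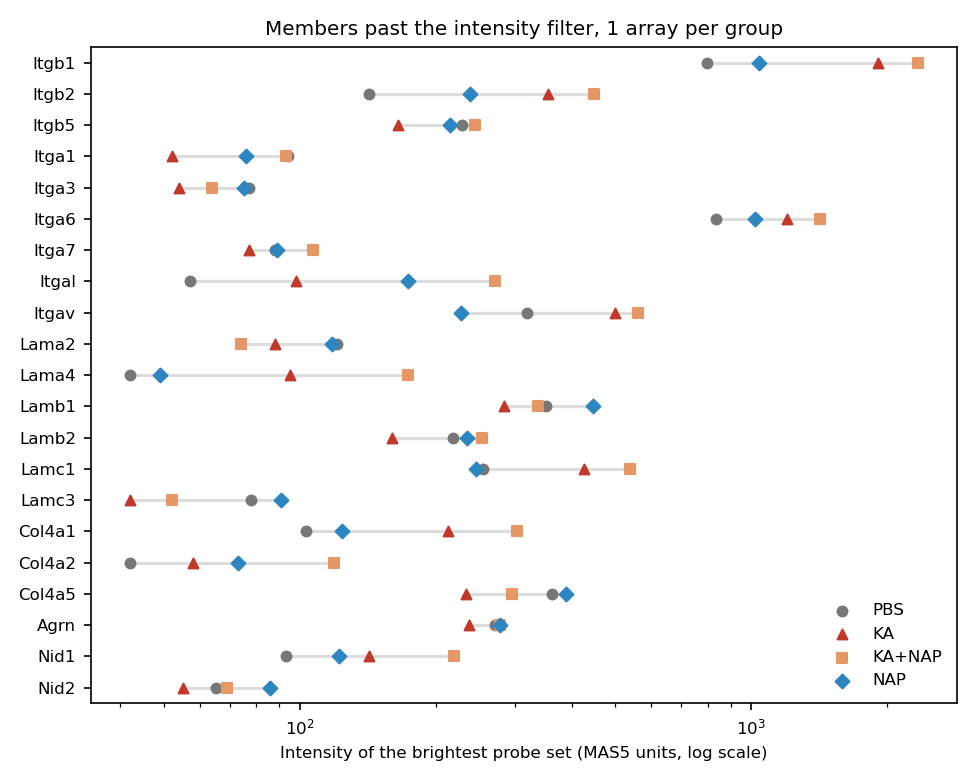
Intensity (MAS5 units, log scale) of the brightest probe set of each of the 21 members past the filter, with 1 symbol per array (grey circle PBS, red triangle KA, orange square KA+NAP, blue diamond NAP) and no error bars because each group had 1 array. Itgb1, Itgb2, Lama4, Lamc1 and Col4a1 have both KA arrays to the right of both other arrays, and Lamc3, Lama2 and Col4a5 have both to the left.

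KA minus PBS and KA+NAP minus NAP share no array. Across the 21 members their log2 differences correlated at Pearson r = 0.88 and Spearman rho = 0.83, beside 0.70 and 0.61 across all 9489 genes. The members share the 4 libraries and can share cells, so these points are not independent. Both KA arrays lay above both arrays without KA for 8 members (Itgb1, Itgb2, Itga6, Itgav, Lama4, Lamc1, Col4a1 and Nid1), a pattern found for 32.3% of all genes. Both lay below for 5 members (Itga3, Lama2, Lamb1, Lamc3 and Col4a5), and 28.7% of all genes did so. At 8 of 21 and 5 of 21, these counts lie near the background.

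**Figure D2:**
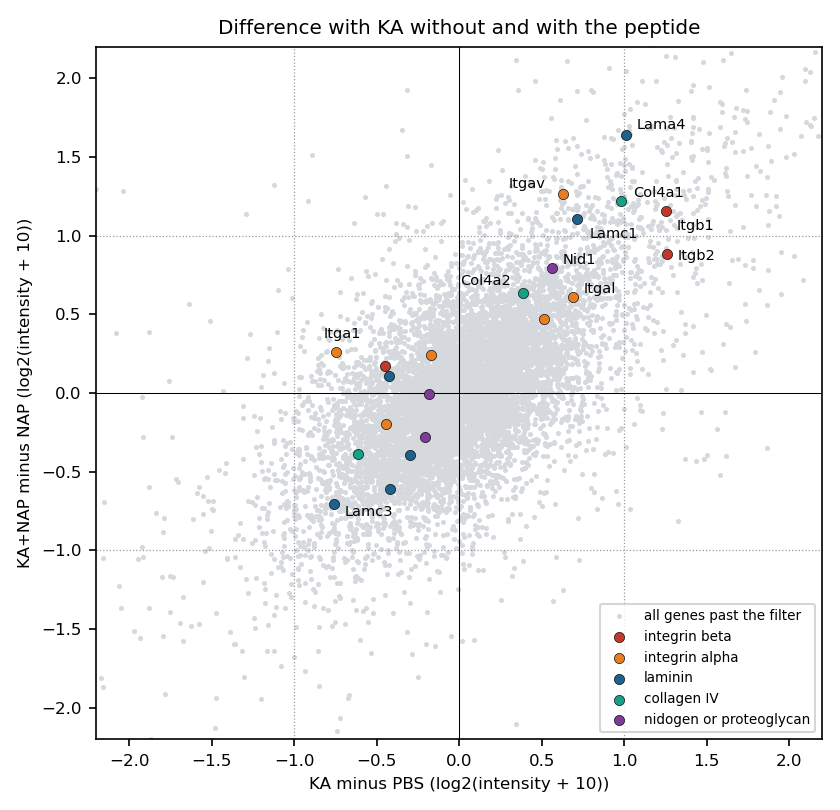
Log2 difference with KA in animals without the peptide (x axis, KA minus PBS) and with it (y axis, KA+NAP minus NAP), for the 21 members past the filter coloured by family and for all 9489 genes past the filter in grey, with axes cut at 2.2 in each direction and dotted lines at 2-fold. Lama4 (1.01 and 1.64) and Itgb1 (1.26 and 1.16) lie in the upper right corner beyond 2-fold on both axes, and Lamc3 (-0.76 and -0.70) is the lowest member on both.

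Itgb1 encodes the beta-1 chain, the common partner of the collagen, laminin and fibronectin binding alpha chains. Its intensity was 796 with PBS, 1914 with KA, 2337 with KA+NAP and 1042 with NAP. Both KA arrays were clearly above both others. The log2 difference was 1.26 in KA minus PBS and 1.16 in KA+NAP minus NAP. Its other probe set, with 217, 575, 656 and 263 in the same order of arrays, gave 1.37 and 1.29. Against the NAP array in place of PBS, the KA difference of Itgb1 was 0.87 and missed 2-fold.

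Itgb2 encodes the beta-2 chain, which leukocytes and microglia carry and which pairs with the alpha chains of LFA-1 (Itgal), Mac-1 (Itgam) and p150,95 (Itgax). Its intensity was 142 with PBS, 354 with KA, 448 with KA+NAP and 238 with NAP. The KA arrays lay above both others, but the NAP array also lay above PBS. The difference was 1.26 in KA minus PBS and 0.89 in KA+NAP minus NAP. With NAP as the control of the KA array it was 0.55. Itgb5, the beta-5 partner of the alpha-v chain, had 229, 165, 244 and 215 in the same order, with differences of -0.45 and 0.17. A second probe set of Itgb5 past the filter had 81, 43, 65 and 82 and gave -0.78 and -0.29. The KA array was lowest in both, but they disagree in KA+NAP minus NAP, so no direction is given there.

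Itgav encodes the alpha-v chain, which binds matrix proteins that carry an RGD motif, such as vitronectin, fibronectin and osteopontin. Its intensity was 318 with PBS, 498 with KA, 561 with KA+NAP and 228 with NAP. Both KA arrays lay above both others. The difference was 0.63 in KA minus PBS and 1.26 in KA+NAP minus NAP, and the low NAP array contributes to the second value. With the controls exchanged the 2 differences were 1.09 and 0.80. Its other probe sets were dim, and they gave 1.11 and 0.81 in KA minus PBS and 1.07 and 0.64 in KA+NAP minus NAP. Their NAP minus PBS differences were 0.30 and 0.35, so the low NAP value was seen in the brightest probe set only. With the mean of its probe sets, the difference in KA+NAP minus NAP was 0.99, under 2-fold.

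Itga6 encodes the alpha-6 chain of laminin receptors. Its intensity was 835 with PBS, 1199 with KA, 1418 with KA+NAP and 1020 with NAP, an ordered but smaller difference of 0.52 and 0.47. Its other 3 probe sets were dim, and their differences in KA minus PBS lay between -0.10 and 0.08. Itga1, the alpha chain of a collagen IV receptor, had 94 with PBS, 52 with KA, 93 with KA+NAP and 76 with NAP. Only the KA array stood lower, and its differences were -0.75 and 0.26. Itga3 and Itga7, alpha chains of further laminin receptors, differed by -0.44 and -0.17 in KA minus PBS and by -0.20 and 0.24 in KA+NAP minus NAP. Of the alpha chains past the filter that pair with beta-1, Itgav and Itga6 thus lay above both other arrays on both KA arrays, as Itgb1 did, and Itga1, Itga3 and Itga7 did not.

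Itgal, the alpha chain of LFA-1, had a different pattern from the genes above. Its intensity was 57 with PBS, 98 with KA, 271 with KA+NAP and 174 with NAP. Both arrays of peptide-treated animals were above both arrays without it. The difference was 1.46 in NAP minus PBS and 1.38 in KA+NAP minus KA, and 0.69 and 0.61 with KA. It was the 1 member of 21 at 2-fold in NAP minus PBS, against 1.05% of all genes, and the 1 member at 2-fold in KA+NAP minus KA, against 1.52%. No member was at least 2-fold lower in either comparison, and 0.242% and 0.601% of all genes were. The haemoglobin gene Hbb, a marker of blood, was at 5 with PBS, 186 with KA, 1549 with KA+NAP and 1430 with NAP, so it was also highest on the peptide arrays. The list of blood genes held 2 others on the array. Alas2, which was dim, was at 3 with PBS, 10 with KA, 34 with KA+NAP and 20 with NAP, also highest on the peptide arrays. Albumin (Alb) passed the filter and was at 111, 28, 11 and 168, lowest with KA+NAP. Whether Alb RNA follows the amount of blood in this tissue was not tested.

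Other leukocyte genes stood beside Itgb2 and Itgal. The 10 infiltrating myeloid markers summed to 1743 with PBS, 3905 with KA, 7519 with KA+NAP and 4102 with NAP. Most of each sum came from Lyz2, at 1410, 2757, 5292 and 3483 in the same order. Of the other markers, Cd163 and Mrc1 were also higher with NAP than with KA, and the rest were lower. In KA minus PBS 5 of the 8 past the filter reached 2-fold upward, against 4.91% of all genes. In KA+NAP minus NAP 6 of 8 did, against 5.66%. Of these 8, S100a8, S100a9, Ly6c and Fcnb were below 62.75 on both arrays without KA and passed through the KA arrays, so the filter partly fixes these counts. Of the 8 lymphocyte markers on the array only Ptprc (CD45, on all leukocytes) passed the filter, with 83, 237, 480 and 146 in the same order. No marker of either list was listed at 0 on any array. The 9 microglia markers summed to 3223, 1693, 2730 and 2877, lowest with KA. The largest fall was that of P2ry12, at 1071, 232, 368 and 773. Aif1, at 203 with PBS and 219 with KA, and C1qb, at 249 and 276, were slightly higher with KA, and the other microglia markers were lower. Of 4 leukocyte or platelet integrins outside the 37 genes, 2 passed the filter, and neither was at 2-fold with KA in either comparison. Itgam, the alpha chain of Mac-1, was at 56 with PBS, 62 with KA, 188 with KA+NAP and 91 with NAP, a difference of 1.46 in KA+NAP minus KA. The part of leukocyte number and of blood in the Itgb2 and Itgal values was not tested.

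Among laminins, the alpha-4 and gamma-1 chains, which endothelial cells assemble into laminin of the vessel wall, were higher with KA, and the other 4 past the filter lay below 0 in KA minus PBS. Lama4 had an intensity of 42 with PBS, 95 with KA, 174 with KA+NAP and 49 with NAP, and the arrays with and without KA did not overlap. The difference was 1.01 in KA minus PBS, just past 2-fold, and 1.64 in KA+NAP minus NAP. Its second probe set was dim (8, 11, 12 and 21) and gave 0.22 and -0.49. Lamc1 had 255 with PBS, 425 with KA, 538 with KA+NAP and 245 with NAP. Again both KA arrays lay above both others, with differences of 0.72 and 1.10. The dim second probe set of Lamc1 gave 0.31 and 1.18.

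The other laminins past the filter included both beta chains that could pair with these. Lamb1 had 351 with PBS, 283 with KA, 337 with KA+NAP and 445 with NAP, a difference of -0.30 and -0.39. Lamb2, the beta-2 chain of mature vessels and synapses, had 218, 160, 253 and 234 in the same order and differences of -0.42 and 0.11. Lama2, the alpha-2 chain that astrocytes and pericytes supply, had 121, 88, 74 and 118, with differences of -0.42 and -0.61. Lamc3, the gamma-3 chain, had 78, 42, 52 and 91, with differences of -0.76 and -0.70. Lamb1, Lama2 and Lamc3 were lower on both KA arrays than on both others, without reaching 2-fold.

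Type IV collagen forms the network on which the basement membrane rests, and its main chains are alpha-1 and alpha-2. Col4a1 had an intensity of 103 with PBS, 213 with KA, 302 with KA+NAP and 124 with NAP. The KA arrays lay above both others, with differences of 0.98 and 1.22. Its second probe set, at 73, 241, 315 and 80, gave larger differences of 1.60 and 1.85. Col4a2 had 42 with PBS, 58 with KA, 119 with KA+NAP and 73 with NAP, so that the KA array lay below the NAP array. Its differences were 0.39 and 0.64. Col4a5, from another pair of chains, went the other way with 362, 233, 295 and 389 and differences of -0.61 and -0.39.

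Nid1 (nidogen 1, a link between laminin and collagen IV) had 93 with PBS, 142 with KA, 219 with KA+NAP and 122 with NAP, and differences of 0.56 and 0.79. Its second probe set also passed the filter and went the other way, with 78, 32, 69 and 117 and differences of -1.07 and -0.68. The 2 probe sets of Nid1 disagree, so no direction is given for this gene. Nid2 (nidogen 2) differed by -0.21 and -0.28. Agrn, which organises synapses as well as the basement membrane, had 270, 237, 277 and 278, with differences of -0.18 and -0.01.

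**Figure D3:**
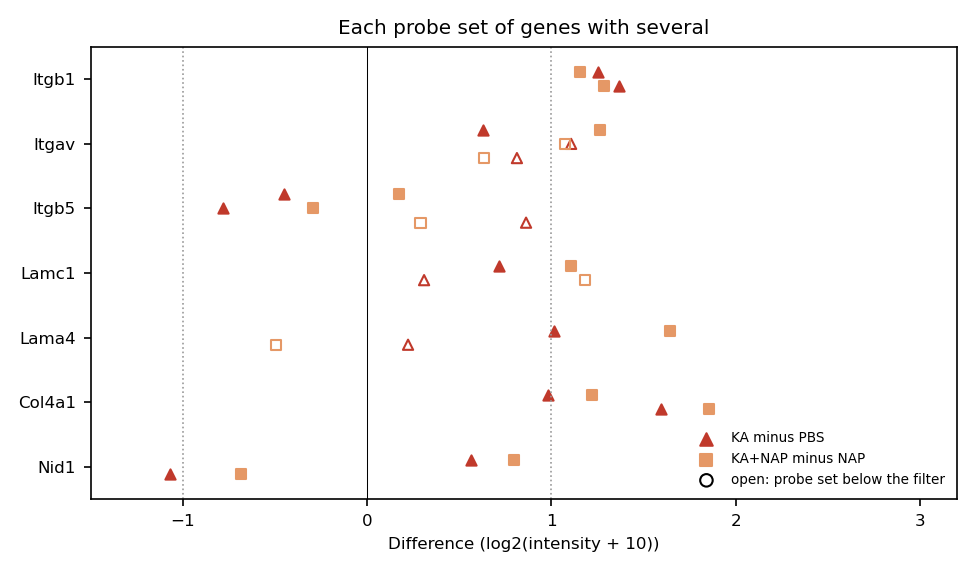
Log2 difference of every probe set of 7 members that have several, for KA minus PBS (red triangles) and KA+NAP minus NAP (orange squares), with open symbols for probe sets below the filter and dotted lines at 2-fold. The probe sets of Itgb1 lie together between 1.16 and 1.37 and those of Col4a1 between 0.98 and 1.85, while those of Nid1 lie on opposite sides of 0.

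The sequences before the start sites of Itgb1, Lamc1, Lama4, Itgav and Col4a1 are shown because each of these genes reached 2-fold with KA in at least 1 difference. Promoters of 29 of the 37 members were matched by symbol in the RefSeq table of the rat assembly GRCr8. Itgb2 also reached 2-fold with KA but was not among these 29, and dim members at 2-fold are not shown. The table places Col4a1 on the plus strand and Col4a2 on the minus strand of chromosome 16, head to head, with start sites 77 bases apart. Both chains therefore share the 76 bases between the starts, given at chr16:84885521-84885596 on the plus strand. For Itgb1 (chr19:73602077-73602276, plus strand), Lamc1 (chr13:68051987-68052186, minus strand), Lama4 (chr20:43946698-43946897, plus strand) and Itgav (chr3:89245182-89245381, plus strand), the 200 bases before the start are given. Letters run 5′ to 3′ on the strand named, and capitals mark a match on either strand to the AP-1 site TGANTCA, the GC box GGGCGG or the CCAAT box, of which GC boxes alone occur in these stretches.
Col4a2 to Col4a1: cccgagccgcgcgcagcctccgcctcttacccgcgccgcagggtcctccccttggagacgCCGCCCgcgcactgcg
Itgb1: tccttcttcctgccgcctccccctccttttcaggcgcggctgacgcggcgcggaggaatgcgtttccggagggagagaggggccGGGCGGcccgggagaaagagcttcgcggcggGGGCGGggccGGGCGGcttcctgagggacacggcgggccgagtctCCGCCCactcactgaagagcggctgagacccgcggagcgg
Lamc1: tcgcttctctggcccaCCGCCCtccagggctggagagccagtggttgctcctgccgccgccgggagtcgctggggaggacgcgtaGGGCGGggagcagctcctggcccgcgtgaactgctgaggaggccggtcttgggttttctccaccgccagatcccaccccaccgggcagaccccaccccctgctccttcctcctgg
Lama4: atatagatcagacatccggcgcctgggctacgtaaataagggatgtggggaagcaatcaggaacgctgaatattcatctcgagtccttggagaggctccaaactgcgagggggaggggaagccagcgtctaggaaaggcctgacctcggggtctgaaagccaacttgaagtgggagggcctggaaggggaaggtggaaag
Itgav: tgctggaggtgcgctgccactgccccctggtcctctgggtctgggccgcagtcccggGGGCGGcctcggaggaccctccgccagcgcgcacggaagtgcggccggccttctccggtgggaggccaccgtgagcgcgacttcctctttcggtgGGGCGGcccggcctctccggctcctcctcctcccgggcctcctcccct
The Itgb1 stretch held 4 GC boxes, those of Lamc1 and Itgav 2 each, the shared collagen interval 1 and that of Lama4 none. In the 250 bases before the start, a GC box stood in 17 of 29 members (58.6%) and in 30.5% of all 33469 promoters, and a CCAAT box in 7 of 29 (24.1%) and 34.0%. The AP-1 letters stood in 2 of 29 members (6.9%), Itgax and Lama3, and in 6.34% of all promoters. A match is a description of the letters and says nothing on binding.

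The KA+NAP array was set against the KA array to follow the peptide in injured tissue. Most members stood slightly higher on the KA+NAP array. The difference was above 0 for 20 of the 21 members past the filter, against 53.8% of all genes. The exception was Lama2 at -0.22. The median was 0.33, against 0.03 over all genes, and only Itgal reached 2-fold. After Itgal came Col4a2 at 0.92, Lama4 at 0.81, Itga1 at 0.73, Lamb2 at 0.63 and Nid1 at 0.59. Itgb1, Lamc1 and Col4a1, which were higher with KA, were at 0.29, 0.33 and 0.48, and none of the 10 members above PBS on the KA array was closer to its PBS level with KA+NAP. Of the 11 members below PBS on the KA array, 9 were closer to it with KA+NAP (Agrn, Col4a5, Itga1, Itga3, Itgb5, Lamb1, Lamb2, Lamc3 and Nid2), and Itga7 and Lama2 were not. These distances share the PBS array and were not tested. With 20 of 21 members higher on the KA+NAP array, members above PBS move away from it and most below move closer. The counts of closer members thus largely restate that upward shift and are no separate result. Quantile normalization left 20 of 21 above 0, with a median of 0.32. With a filter on the arrays without KA, 19 of 20 lay above 0. Over all 37 members 28 did, against 52.7% of all genes without a filter. The 16 dim members were split evenly, with 8 above 0 and 8 below, so the shift was seen in the brighter members only. Since each group is 1 array, a difference between the animals or dissections of these arrays and an effect of the peptide cannot be told apart.

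**Figure D4:**
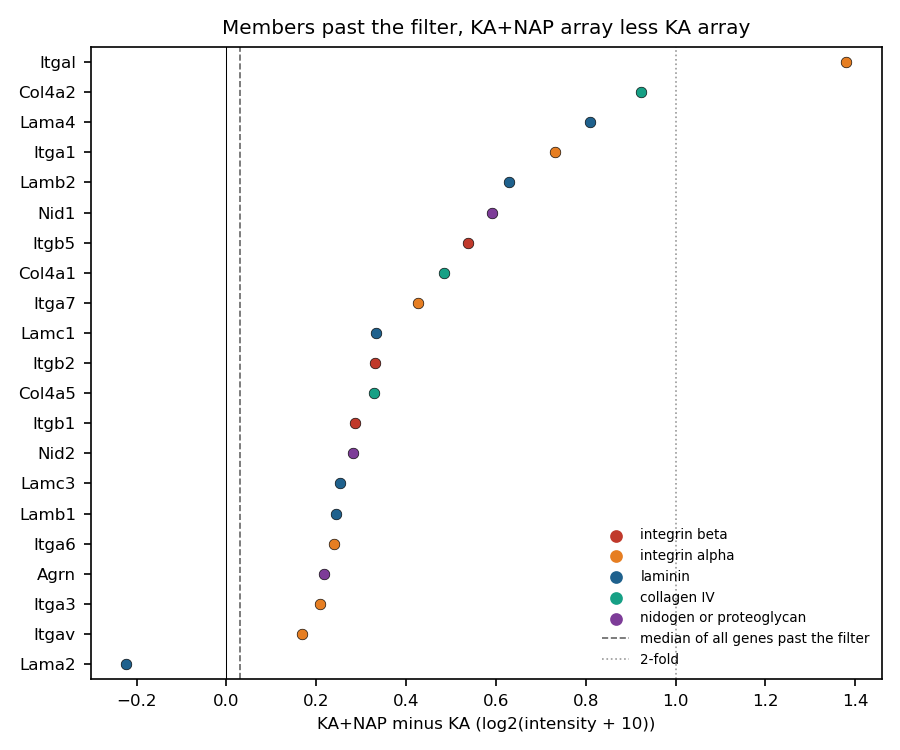
Log2 difference of KA+NAP minus KA for the 21 members past the filter, ordered by size and coloured by family, with the median of all genes past the filter (dashed, 0.03) and 2-fold (dotted). All members but Lama2 lie to the right of 0, and Itgal at 1.38 is the 1 member past 2-fold.

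Markers of vessel cells and their neighbours were read beside these values. The 9 endothelial markers on the array summed to 2644 with PBS, 2664 with KA, 3675 with KA+NAP and 3773 with NAP. None of the 8 past the filter was at 2-fold with KA in either comparison, where 4.91% and 5.66% of all genes were higher. Their median was 0.20 in KA minus PBS, 0.17 in KA+NAP minus NAP and 0.41 in KA+NAP minus KA. The 9 pericyte and smooth muscle markers summed to 755, 1646, 2771 and 969, but this came largely from Tagln (transgelin) at 136, 1048, 1832 and 308. Without Tagln the other 8 summed to 619, 598, 939 and 661, and 4 of them lay below 0 in KA minus PBS. The 10 meningeal and fibroblast markers summed to 2019, 1601, 2050 and 3423, highest with NAP alone. The 9 reactive astrocyte markers summed to 7186, 17102, 22029 and 11656. Gfap was the largest part of each sum, at 5744, 8147, 9776 and 8065. The 9 general astrocyte markers, which also include Gfap, went the other way with KA, at 37849, 31434, 33637 and 38311. Of these, 2 of 9 were at least 2-fold lower in each KA difference, against 2.39% and 2.41% of all genes. No marker of these lists was listed at 0 on any array, and the part of these cells in the laminin, collagen and Itgb1 values was not tested.

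NAP alone was compared with PBS to describe the peptide without the toxin. Apart from Itgal, the 21 members lay between -0.46 (Itgav) and 0.71 (Itgb2), with a median of 0.18 against 0.02 over all genes. The dim probe sets of Itgav gave 0.30 and 0.35, so no direction is given for it. Col4a2 was at 0.67, Itgb1 at 0.38, Nid1 and Nid2 both at 0.36 and Lamb1 at 0.33. Itga1 was at -0.27 and Lamc1 at -0.06.

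The 16 dim members had intensities between 1 and 115, and their differences depend on the pseudocount. Itgax, the alpha chain of p150,95 on myeloid and dendritic cells, had 1 with PBS, 84 with KA, 115 with KA+NAP and 20 with NAP. Both KA arrays were above the filter threshold and both others far below it. The difference was 3.10 in KA minus PBS and 2.06 in KA+NAP minus NAP, with the PBS value too near 0 to give its size meaning. Itgb3, the beta-3 chain of platelets and activated endothelium, had 17, 36, 90 and 16, highest with KA+NAP, and differences of 0.77 and 1.94. Itga11, a collagen receptor chain of fibroblasts, had 36, 11, 32 and 24, lowest with KA, and differences of -1.13 and 0.30. Lama5, the alpha-5 chain of mature vessels, had 25, 34, 26 and 5, and Col4a6 had 13, 11, 20 and 40. In these brightest probe sets, Lama5 and Col4a6 reached 2-fold only where the NAP array was compared, and both stayed under 62.75 on every array. In KA minus PBS the brightest gave 0.33 for Lama5 and -0.13 for Col4a6. The other probe sets of Lama5 gave -1.13 and 0.45, and that of Col4a6 gave 0.79. The probe sets of each gene disagree, so no direction with KA is given for either. The other 11, Itgb4, Itgb6, Itgb7, Itga5, Itga8, Itga9, Lama1, Lama3, Lamb3, Col4a4 and Hspg2, had intensities between 1 and 65 and no difference beyond 0.86 in either direction. Itga5, the fibronectin receptor chain, was at 34, 33, 27 and 31, and Hspg2 at 35, 25, 22 and 48.

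**Figure D5:**
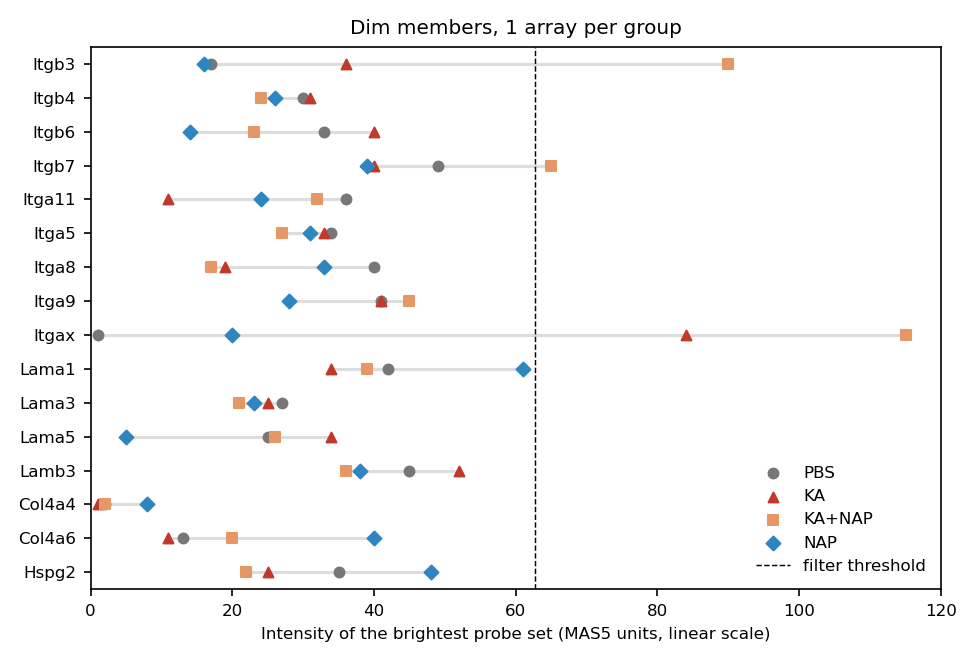
Intensity (MAS5 units, linear scale) of the brightest probe set of each of the 16 dim members, with 1 symbol per array as in the plot of the brighter members and the filter threshold of 62.75 as a dashed line. Itgax has both KA arrays (84 and 115) beyond the threshold, Itgb3 has the KA+NAP array (90) and Itgb7 the KA+NAP array (65), and every other symbol lies below it.

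Genes around these members were read from fixed lists. Of 26 integrin adaptors and adhesion kinases past the filter, 4 reached 2-fold upward in KA minus PBS and 4 in KA+NAP minus NAP. Of all genes, 4.91% and 5.66% did so. None of the 26 was at least 2-fold lower, against 2.39% and 2.41% of all genes. The medians were 0.33 and 0.53, against 0.02 and 0.03 over all genes. The actin crosslinker Flna (filamin A, which binds beta chain tails) was at 114 with PBS, 360 with KA, 862 with KA+NAP and 172 with NAP. Fermt3, the kindlin of blood cells, was at 15, 81, 184 and 65, the tetraspanin Cd9 at 516, 1139, 1641 and 452, and talin 1 (Tln1), which couples integrins to actin, at 143, 133, 255 and 114. Flna, Fermt3 and Cd9 were at 2-fold in both KA differences, and Tln1 stood out on the KA+NAP array only.

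The counts here stand beside 4.91% and 5.66% of all genes at least 2-fold higher with KA, and 2.39% and 2.41% lower. Of 10 integrin ligands outside the basement membrane past the filter, 6 were at least 2-fold higher and 1 lower in each KA difference. Icam1 and Postn among them, like Lox, Mmp9 and Plau in the lists that follow, passed the filter only through their KA arrays. Osteopontin (Spp1), a ligand of the alpha-v chain, was at 47 with PBS, 1087 with KA, 3248 with KA+NAP and 153 with NAP. Tenascin C (Tnc) was at 74, 933, 828 and 97, the matricellular Ccn2 at 201, 494, 794 and 172, and Icam1, the ligand of LFA-1, at 45, 116, 168 and 35. Vitronectin (Vtn), another ligand of alpha-v, was the lower one at 171, 55, 64 and 274. All these had both KA arrays on one side of both others. Of 10 collagen processing enzymes past the filter, 5 reached 2-fold upward in KA minus PBS and 2 in KA+NAP minus NAP. Lysyl oxidase (Lox), which crosslinks fibrillar collagen, was at 19, 1458, 332 and 30. Plod2, a lysyl hydroxylase, was at 61, 147, 159 and 83. Lysyl hydroxylase 3 (Plod3), which modifies collagen IV, was at 181, 571, 694 and 227, and peroxidasin (Pxdn), which crosslinks it, at 117, 346, 156 and 212. Pxdn was high on the KA array only, with -1.10 in KA+NAP minus KA.

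Proteases that cut basement membrane had 4 of 8 at least 2-fold higher in each KA difference, against 4.91% and 5.66% of all genes. Adamts1 was at 129, 1162, 1390 and 168, and urokinase (Plau) at 25, 218, 220 and 31. Mmp9, a gelatinase that cuts collagen IV, was at 39, 233, 159 and 36. The membrane-bound Mmp14 was at 68, 88, 160 and 64. Adamts1, Plau and Mmp9 had both KA arrays far above both others, and Mmp14 reached 2-fold only in KA+NAP minus NAP, at 1.20. Of 10 other basement membrane and laminin receptor genes past the filter, 1 was at 2-fold in each KA difference, Fbln2 (fibulin 2) at 159, 1738, 1774 and 168. The medians of that list were -0.03 and -0.15. Several of these genes were known to be high on these arrays when the lists were made, so the counts are no independent evidence of a direction.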

How the data were processed

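RNA of the CA3 area from 4 groups, 1 array each, was amplified in 2 cycles from 500 ng, per the labels' protocols, which favours 3′ ends. Intensities were computed with MAS5 by the authors, per the submitters' processing notes. The sources used here do not give the MAS5 version, detection calls or scan dates. Deposited intensities are whole numbers. Their mean after removal of the extreme 2% at each end was 250.1 on every array. Of 31099 probe sets, 20826 had 1 symbol in the platform annotation, 436 had several, 9780 were not listed and 57 were controls. Symbols were updated through Entrez identifiers to GRCr8, where 20758 matched, and no member's symbol was changed.

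A gene took its brightest probe set. The log2 differences used a pseudocount of 10, the 20th percentile of all values. Genes past the filter had a mean intensity above 62.75. All 37 members are named, and of each list of neighbouring genes the 4 with the largest KA difference at 2-fold, if any. Vtn is named beyond these 4 because it was the 1 lower ligand. Members, lists and rule were chosen with earlier results of these data known. No test was run, since each group has 1 array. Alternatives were another pseudocount, filter, probe set rule, normalization and control array. Python 3.11.15, pandas 2.3.3 and numpy 2.4.6 were used.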

Additional observations from a re-analysis of the deposited data

Results flagged for a closer look

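Itga1 and the dim Itga11 had KA differences of opposite sign without and with the peptide, each gap at least 2-fold. For Itga1, the KA difference with NAP exceeded that without it by 1.01, from -0.75 to 0.26. For Itga11 the gap was 1.44, from -1.13 to 0.30, with every array below 62.75. Each value rests on 1 array per group, and the difference between the effects was not tested.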

How the results depend on the processing

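No paired analysis was possible because each group has 1 array and no replicate number pairs arrays. No lower member past the filter appeared in any comparison under any planned setting that kept the filter. Without a filter, over 37 members, 8 were at least 2-fold higher in KA+NAP minus NAP, 3 in KA+NAP minus KA (Itgal, Itgb3 and Itga11) and 3 in NAP minus PBS (Itgal, Itgax and Col4a6), and 1 was lower in KA minus PBS (Itga11) and 1 in NAP minus PBS (Lama5). With a pseudocount of 1, 2 were higher in KA+NAP minus KA (Itgal and Col4a2). With the mean of all probe sets, 3 were higher in KA+NAP minus NAP (Itgb1, Lamc1 and Col4a1). With the other array without KA as the control, an alternative chosen after seeing the data, 1 was higher with KA (Itgav) and 8 with KA+NAP (Itgb1, Itgb2, Itgal, Lama4, Lamc1, Col4a1, Col4a2 and Nid1). The last comparison, KA+NAP minus PBS, combines both treatments. Under these alternatives the share of all genes at 2-fold was not counted, so their member counts cannot be set against a background. In KA minus PBS, Lama4 missed 2-fold with a pseudocount of 50 (0.66), with quantile normalization (0.98) and with the mean of probe sets (0.62), and Col4a1 reached it with a pseudocount of 1 (1.04) and the mean of probe sets (1.29). Of 312 values of 12 genes under these settings, 282 kept their side of 2-fold, 22 lost it, 8 gained it and none at 2-fold changed sign. The settings that change only the filter leave the value of each gene as it was. The mean of probe sets does the same for a gene with a single probe set. Part of the 282 was thus fixed in advance, and this count does not measure how stable the values are. Signal over background was not examined.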
